A study of Homo sapiens with 15 samples.

Results

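GAPDH, 3 further enzymes of glycolysis (HK2, GPI and PGAM1), lactate dehydrogenase A (LDHA) and RPIA of the pentose phosphate pathway were followed across 15 expression arrays of HEK293T cells, an established human embryonic kidney line. These 6 genes were chosen by name from 14884 named genes, with earlier results of these data known. Counts of calls among them are therefore not an independent test of the pathways. Each was measured by 1 named probe set, the group of probes that the array summarises as 1 value. Cells of 4 groups received siRNA against LOC550643 (the transcript that encodes the small protein NoBody, targeted with a pool of 4 siRNAs), Dcp2, DcpS or GAPDH, and those of the fifth a non-silencing siRNA that matches no human gene. All 5 groups, the non-silencing one included, were transfected with Dharmafect 1 and spent, from 48 h later, 4 h in actinomycin D at 1 ug/mL before total RNA was taken. Each group had 3 arrays of 1 transfected cell line, so the groups describe transient knockdown in HEK293T cells only. Dcp2 removes the cap from messenger RNA ahead of decay and DcpS degrades the cap that remains after decay from the other end. The study chose Dcp2 as a functional relative of NoBody, and DcpS and GAPDH as unrelated comparisons for the specificity of the response. The labels number the 3 arrays of a group without saying that they were separate cultures, so p-values measure the spread between these arrays, which may be technical.

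Glycolysis breaks glucose down to pyruvate in the cytosol. Hexokinase 2 (HK2) adds the first phosphate, glucose-6-phosphate isomerase (GPI) turns the product into fructose 6-phosphate, GAPDH carries out the oxidation step that makes NADH, and phosphoglycerate mutase 1 (PGAM1) acts further down. LDHA reduces pyruvate to lactate and returns NAD+ to the GAPDH step. The pentose phosphate pathway leaves glycolysis at the product of HK2, makes NADPH and ribose 5-phosphate, and RPIA, ribose-5-phosphate isomerase, acts in its nonoxidative branch, from which PRPS enzymes make the sugar donor for nucleotides. GAPDH is also widely used as a reference transcript. Actinomycin D blocks transcription, and no array without it was analysed here, so a level below is the level after the drug and not a rate of decay.

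Promoter sequences are shown for GAPDH, the siRNA target, for HK2, which was lower in 3 of the 4 comparisons, and for LDHA and PGAM1, which were lower together with DcpS siRNA. RefSeq (GRCh38.p14) held windows of 300 bases, 250 before to 50 after an annotated transcription start, for 6 of the 6 genes. A gene can have several such starts, and whether a window is the main promoter of its gene was not tested. The windows are on the plus strand at chr12:6535014-6535313 (GAPDH), chr2:74834920-74835219 (the second of 2 HK2 windows), chr11:18394313-18394612 (the first of 2 LDHA windows) and chr10:97427568-97427867 (PGAM1). Each holds such a start with the flanking upstream DNA. For HK2 and LDHA the window shown is the one with more matches to the motifs below, so the sequences shown overstate the motif content of these genes. Capitals mark ACGTG, the core bound by hypoxia-inducible factors, or its reverse complement, and CACGTG, the E-box bound by MYC, within which ACGTG is found on both strands.
GAPDH: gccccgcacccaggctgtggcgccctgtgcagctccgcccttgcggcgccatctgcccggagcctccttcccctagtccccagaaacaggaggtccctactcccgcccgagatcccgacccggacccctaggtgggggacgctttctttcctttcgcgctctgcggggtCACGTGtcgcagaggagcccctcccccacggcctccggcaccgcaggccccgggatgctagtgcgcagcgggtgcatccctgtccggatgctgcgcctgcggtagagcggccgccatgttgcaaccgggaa
HK2: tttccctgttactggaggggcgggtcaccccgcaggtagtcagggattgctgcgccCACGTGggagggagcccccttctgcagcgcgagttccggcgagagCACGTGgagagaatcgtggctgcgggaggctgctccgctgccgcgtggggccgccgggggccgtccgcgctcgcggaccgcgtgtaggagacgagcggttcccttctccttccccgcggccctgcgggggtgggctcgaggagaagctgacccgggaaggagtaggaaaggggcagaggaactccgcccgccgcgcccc
LDHA: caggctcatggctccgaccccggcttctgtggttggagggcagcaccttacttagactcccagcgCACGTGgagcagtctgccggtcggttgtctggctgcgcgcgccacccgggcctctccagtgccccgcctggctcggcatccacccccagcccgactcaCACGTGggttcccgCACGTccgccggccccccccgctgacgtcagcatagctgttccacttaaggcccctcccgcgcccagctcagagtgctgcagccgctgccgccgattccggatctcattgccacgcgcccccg
PGAM1: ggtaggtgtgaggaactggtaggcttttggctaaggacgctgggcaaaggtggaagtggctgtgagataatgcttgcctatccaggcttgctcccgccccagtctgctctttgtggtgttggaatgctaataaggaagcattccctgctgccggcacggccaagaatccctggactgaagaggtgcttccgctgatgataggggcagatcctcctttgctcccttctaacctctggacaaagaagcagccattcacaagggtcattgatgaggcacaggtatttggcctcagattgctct
Counting both strands, ACGTG occurred 2 times in the GAPDH window, 4 times in the second HK2 window and 5 times in the first LDHA window, and CACGTG 1, 2 and 2 times. The other HK2 window held ACGTG 2 times and the GPI window 1 time, without CACGTG. The PGAM1, RPIA and second LDHA windows held 0 of either motif. The PGAM1 window is that of the gene of this name, and whether its probe set measures that gene is in doubt, as described below. Of all 35116 RefSeq windows of this length, 21.4% held ACGTG and 7.26% CACGTG at least 1 time. These are shares of windows and not numbers of occurrences, and a match describes letters and not a bound site.

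The arrays were alike as a whole. Their medians lay between 4.01 and 4.08 log2 units, the correlation over all probe sets was 0.983 to 0.991 within groups and 0.981 to 0.991 between groups, and 0 pairs were identical. Of 12 transcripts listed for HEK293 cells, 8 had a named probe set, with mean levels from 3.92 (PAX8) to 8.72 (KRT18) and the neuroectodermal factor SOX2 at 6.27, while 10 markers of other cell types lay between 2.39 (DCN) and 5.31 (TTR). These levels belong to different probe sets and no detection call was used, so they give no order of abundance. The platform table named no probe set for LOC550643 or DCPS, and the knockdown of these targets was not analysed here. The largest pattern of variation among arrays of the same group, the first principal component of the deviations from the group means, held 24.7% of that variance, with non-silencing replicate 1 (score -20.2) and DcpS replicate 1 (score -16.7) at its low end. Its values are given beside the 2 genes that followed it most, LDHA and PGAM1.

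Against the non-silencing arrays, 2 of the 6 enzymes were lower and 0 higher with each of the 4 siRNAs. HK2 and GPI fell with LOC550643 siRNA, HK2 and RPIA with Dcp2 siRNA, LDHA and PGAM1 with DcpS siRNA, and GAPDH itself and HK2 with GAPDH siRNA. A gene was called at a limma adjusted p under 0.05, with p-values adjusted by Benjamini-Hochberg over all 14884 named genes. Of all named genes, 0.907% were called lower and 0.658% higher with LOC550643 siRNA, 0.927% and 1.05% with Dcp2 siRNA, 1.85% and 1.76% with DcpS siRNA, and 1.27% and 0.726% with GAPDH siRNA. The median change of the 6 enzymes was -0.20 log2 units with LOC550643 siRNA (4 of 6 negative), -0.04 with Dcp2 siRNA (3 of 6), -0.21 with DcpS siRNA (5 of 6) and -0.07 with GAPDH siRNA, beside all-gene medians of -0.007, 0.001, 0.002 and 5.65e-05. The 4 comparisons share the same 3 non-silencing arrays, so a high or low reference value moves all of them together. Groups that stand apart are common with 3 arrays. Of all named genes, 17% had no overlap between LOC550643 and non-silencing arrays, 22.8% for Dcp2, 18.5% for DcpS and 17.3% for GAPDH siRNA. The share of genes with 1 group apart from all other arrays, a trait given for some genes below, was not counted.

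**Figure D1:**
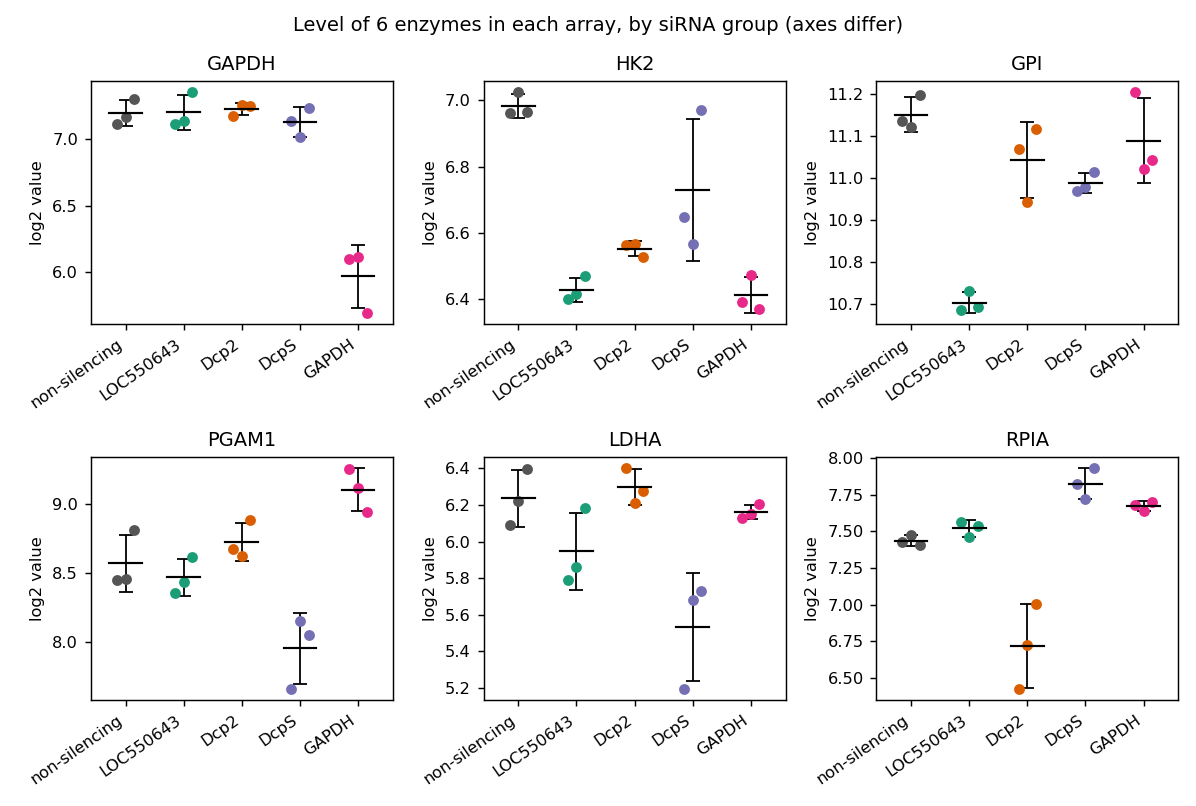
The log2 level (y axis, which differs between panels) of GAPDH, HK2, GPI, PGAM1, LDHA and RPIA is plotted for each array by siRNA group (x axis), where a point is 1 array and the bars give the group mean and SD (n = 3). The GAPDH arrays stand low for GAPDH, the LOC550643 arrays for GPI, the DcpS arrays for PGAM1 and LDHA and the Dcp2 arrays for RPIA, while for HK2 the non-silencing arrays and DcpS replicate 3 lie at the top.

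GAPDH was lower in the cells that received its own siRNA. Replicates 1, 2 and 3 read 6.10, 6.11 and 5.69 log2 units with GAPDH siRNA, 7.12, 7.17 and 7.30 with non-silencing siRNA, 7.11, 7.14 and 7.36 with LOC550643 siRNA, 7.18, 7.26 and 7.26 with Dcp2 siRNA, and 7.14, 7.02 and 7.24 with DcpS siRNA. The 3 GAPDH siRNA arrays lay below all 12 others, and the other 4 groups overlapped. The mean fell from 7.20 ± 0.10 to 5.97 ± 0.24 (SD, n = 3 each), a change of -1.23 (SE 0.11, 95% interval -1.47 to -0.99, limma adjusted p = 2.70e-05) that left 42.6% of the reference level. Against LOC550643, Dcp2 and DcpS siRNA the change was -1.24, -1.26 and -1.16 (limma adjusted p = 2.20e-05, 2.17e-05 and 2.26e-05). Replicate 3 of the GAPDH siRNA group was the lowest of the 15 arrays. As a reference transcript, GAPDH stayed near 7.2 elsewhere: its changes against the non-silencing arrays were 0.006 with LOC550643 siRNA (95% interval -0.24 to 0.25), 0.03 with Dcp2 siRNA (-0.21 to 0.28) and -0.07 with DcpS siRNA (-0.31 to 0.18), with limma adjusted p of 0.991, 0.932 and 0.862. These intervals still allow changes of up to 0.31 log2 units.

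HK2, at the entry of glycolysis, was lower with LOC550643, Dcp2 and GAPDH siRNA. The non-silencing arrays read 6.96, 7.02 and 6.96, against 6.40, 6.41 and 6.47 with LOC550643 siRNA, 6.56, 6.57 and 6.53 with Dcp2 siRNA, and 6.39, 6.47 and 6.37 with GAPDH siRNA. The arrays of these 3 groups lay below the reference without overlap and close to each other. With DcpS siRNA the values were spread, at 6.65, 6.57 and 6.97, and replicate 3 lay among the reference arrays. HK2 fell by 0.56 log2 units with LOC550643 siRNA (SE 0.10, 95% interval -0.76 to -0.35, limma adjusted p = 0.00797), to 68.1% of the reference, and by 0.57 with GAPDH siRNA (95% interval -0.77 to -0.37, limma adjusted p = 0.00458), to 67.3%. With Dcp2 siRNA it fell by 0.43 (95% interval -0.63 to -0.23, limma adjusted p = 0.0328). That call was lost without any one of 5 arrays (non-silencing replicate 1 or 2, Dcp2 replicate 1, 2 or 3), where the adjusted p was 0.0940 to 0.110, and with the array pattern as a covariate (adjusted p = 0.0593). With DcpS siRNA the change was -0.25 (limma adjusted p = 0.177), and without DcpS replicate 3 it was -0.38 (adjusted p = 0.0269). In the other 15 of 16 alternatives this change did not pass (adjusted p up to 0.477).

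From low to high, the HK2 means were 6.41 ± 0.05 with GAPDH siRNA, 6.43 ± 0.04 with LOC550643 siRNA, 6.55 ± 0.02 with Dcp2 siRNA, 6.73 ± 0.21 with DcpS siRNA and 6.98 ± 0.04 in the reference (SD, n = 3 each). No 2 neighbours in this order differed past the threshold (limma adjusted p = 0.960, 0.588, 0.346 and 0.177, from low to high). GAPDH and LOC550643 siRNA differed by 0.02 in HK2 (95% interval -0.22 to 0.19).

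GPI, which acts next to HK2, was lower with LOC550643 siRNA. The LOC550643 arrays read 10.69, 10.73 and 10.69, against 11.13, 11.12 and 11.20 in the reference, 11.07, 10.94 and 11.12 with Dcp2 siRNA, 10.97, 10.98 and 11.01 with DcpS siRNA, and 11.20, 11.02 and 11.04 with GAPDH siRNA. All 3 LOC550643 arrays were below the other 12. The mean fell from 11.15 ± 0.04 to 10.70 ± 0.02 (SD, n = 3 each), a change of -0.45 (SE 0.08, 95% interval -0.62 to -0.28, limma adjusted p = 0.00975), to 73.3% of the reference. The other 3 groups lay between 10.99 and 11.09 with changes of -0.11 for Dcp2 siRNA, -0.16 for DcpS siRNA and -0.06 for GAPDH siRNA (limma adjusted p = 0.569, 0.343 and 0.811). All Dcp2 and DcpS arrays lay below the lowest reference array, 1 of the Dcp2 arrays only just, in differences that did not pass the test. From low to high the groups ran LOC550643, DcpS, Dcp2, GAPDH and non-silencing siRNA, and of the neighbours the first pair differed (limma adjusted p = 0.0472), while the next 3 pairs did not pass (adjusted p = 0.800, 0.854 and 0.811).

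PGAM1 had its lowest level with DcpS siRNA and its highest with GAPDH siRNA. The DcpS arrays read 7.66, 8.15 and 8.05 and the GAPDH siRNA arrays 9.25, 9.11 and 8.94, against 8.45, 8.45 and 8.81 in the reference, 8.35, 8.43 and 8.61 with LOC550643 siRNA, and 8.67, 8.62 and 8.88 with Dcp2 siRNA. Every DcpS array was below, and every GAPDH siRNA array above, the arrays of all other groups. With DcpS siRNA the mean fell from 8.57 ± 0.21 to 7.95 ± 0.26 (SD, n = 3 each), a change of -0.61 (SE 0.14, 95% interval -0.91 to -0.32, limma adjusted p = 0.0203), to 65.3% of the reference. This call was lost without DcpS replicate 1 (change -0.47, adjusted p = 0.0770) and without non-silencing replicate 3 (-0.50, adjusted p = 0.0871). With GAPDH siRNA the mean was 9.10 ± 0.16 and the change 0.53 (95% interval 0.24 to 0.83), which did not pass the test (limma adjusted p = 0.0634). It passed in 4 of 16 alternatives: without non-silencing replicate 3 (0.65, adjusted p = 0.0356), with dim genes left out (adjusted p = 0.0291), with the trend and robust variance model (0.0407) and with array weights (0.0336). In the other 12 it did not pass (adjusted p up to 0.236). LOC550643 and Dcp2 siRNA left it at 8.47 ± 0.13 and 8.72 ± 0.14 (changes -0.10 and 0.15, limma adjusted p = 0.848 and 0.655). In the order DcpS, LOC550643, non-silencing, Dcp2 and GAPDH siRNA, the first neighbours differed (limma adjusted p = 0.0384) and the next 3 pairs did not pass (adjusted p = 0.848, 0.655 and 0.177).

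The name of the PGAM1 probe set carries a doubt. The gene lies on chromosome 10, but of the 20 named probe sets with the nearest identifier numbers, 20 belong to genes on chromosome 12 and 0 to genes on chromosome 10. For the other 5 enzymes 20 of 20 such neighbours lay on the gene's own chromosome, and 75 of 16078 named probe sets (0.466%) had none there. PGAM1, GAPDH and LDHA also have near-identical copies elsewhere in the genome, whose transcripts a probe set may not separate. The related gene PGAM4 had means of 6.84 in the reference, 7.10 with LOC550643 siRNA, 7.08 with Dcp2 siRNA, 6.58 with DcpS siRNA and 7.29 with GAPDH siRNA, and its values correlated with those of PGAM1 at r = 0.712 over the 15 arrays, which share the groups. PGAM4 also differed between GAPDH and DcpS siRNA, by 0.71 (limma adjusted p = 0.0298), a call lost in 6 of 16 alternatives.

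LDHA, at the lactate end, was also low with DcpS siRNA. The DcpS arrays read 5.19, 5.68 and 5.73, against 6.09, 6.22 and 6.40 in the reference, 5.79, 5.86 and 6.18 with LOC550643 siRNA, 6.40, 6.21 and 6.27 with Dcp2 siRNA, and 6.13, 6.15 and 6.20 with GAPDH siRNA. All 3 DcpS arrays were below the other 12, by a narrow gap to the LOC550643 arrays. The mean fell from 6.24 ± 0.15 to 5.53 ± 0.30 (SD, n = 3 each), a change of -0.70 (SE 0.14, 95% interval -0.99 to -0.41, limma adjusted p = 0.00860), to 61.5% of the reference, and without DcpS replicate 1, the lowest array, the change was -0.53 (adjusted p = 0.0315). With GAPDH siRNA the mean was 6.16 ± 0.04 and the change -0.08 (95% interval -0.37 to 0.22, limma adjusted p = 0.876). With LOC550643 siRNA the mean was 5.95 ± 0.21 (change -0.29, limma adjusted p = 0.404) and with Dcp2 siRNA 6.30 ± 0.10 (change 0.06, adjusted p = 0.890). In the order DcpS, LOC550643, GAPDH, non-silencing and Dcp2 siRNA, no 2 neighbours differed past the threshold (limma adjusted p = 0.0927, 0.470, 0.876 and 0.890). The first pair passed in 2 of 16 alternatives, with dim genes left out (adjusted p = 0.0481) and with the array score, described next, as a covariate (0.36, adjusted p = 0.0296). The latter p is lowered by the way the score is made. In the other 14 alternatives the pair did not pass (adjusted p up to 0.355). LDHB, the other main lactate dehydrogenase subunit, gave values of -0.01 to -0.09 log2 units against the reference with the 4 siRNAs, none past the test, and its values had r = 0.0485 with LDHA over 15 arrays.

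LDHA and PGAM1 moved with the pattern shared by arrays of the same group. After the group means were removed, r between the level and the array score was 0.826 for LDHA and 0.473 for PGAM1, against 0.168 for HK2, 0.107 for GPI, -0.06 for GAPDH and -0.06 for RPIA (15 arrays, with the score built from all named genes, these 6 included). LDHA and PGAM1 correlated at r = 0.801 over the 15 arrays and at 0.738 within groups, so their readings of the DcpS arrays are not separate. The mean score was -2.76 with DcpS siRNA (arrays -16.7, 3.86 and 4.58) and -5.64 in the reference (arrays -20.2, -0.81 and 4.09). Each of these means is pulled down by replicate 1. With the score as a covariate the changes with DcpS siRNA were -0.74 for LDHA (limma adjusted p = 0.000444) and -0.64 for PGAM1 (adjusted p = 0.00747). Without it they were -0.70 and -0.61. Whether the shared pattern underlies the low levels was not tested, since the score is built from the same arrays and genes.

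**Figure D2:**
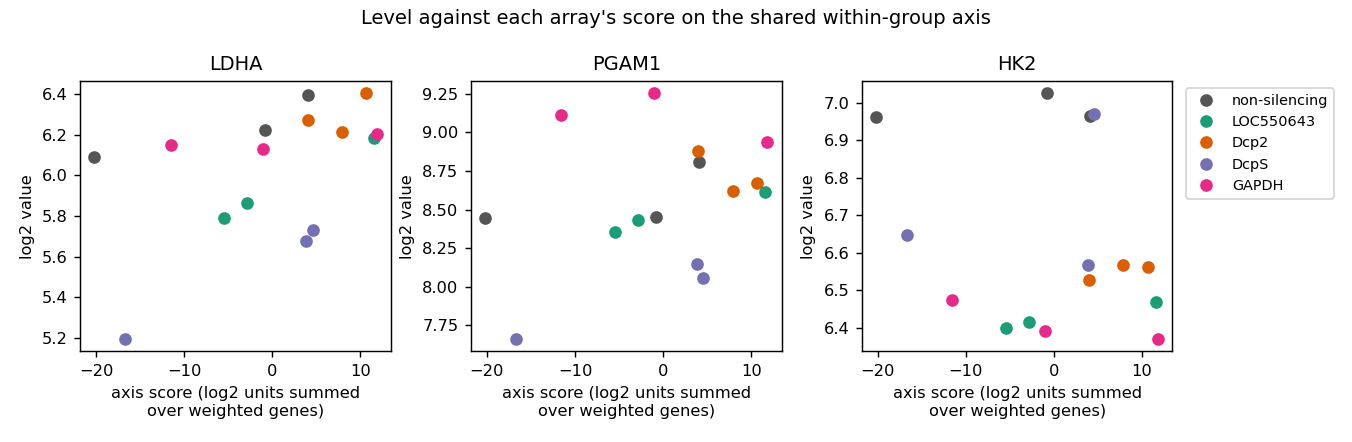
The log2 level of LDHA, PGAM1 and HK2 (y axis) is plotted against each array's score on the pattern shared by arrays of 1 group (x axis, log2 units summed over weighted genes), with a point for each of the 15 arrays, coloured by siRNA. For LDHA arrays of a group tend to climb with the score (r = 0.826 within groups) and the DcpS arrays lie below those of other groups at like scores, while HK2 shows little slope (r = 0.168).

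RPIA, the pentose phosphate member, was low with Dcp2 siRNA. The Dcp2 arrays read 6.42, 6.72 and 7.00, against 7.42, 7.48 and 7.40 in the reference, 7.57, 7.46 and 7.54 with LOC550643 siRNA, 7.82, 7.72 and 7.93 with DcpS siRNA, and 7.68, 7.64 and 7.70 with GAPDH siRNA. All 3 Dcp2 arrays lay below the other 12, although they differed by more among themselves than the arrays of any other group. The mean fell from 7.43 ± 0.04 to 6.72 ± 0.29 (SD, n = 3 each), a change of -0.72 (SE 0.12, 95% interval -0.96 to -0.47, limma adjusted p = 0.00788), to 60.8% of the reference. The DcpS and GAPDH siRNA arrays lay above the reference without overlap, at means of 7.82 ± 0.11 and 7.67 ± 0.03, but the changes of 0.39 (95% interval 0.14 to 0.64) and 0.24 (95% interval -0.01 to 0.48) did not pass the test (limma adjusted p = 0.0789 and 0.386). The former passed in 1 of 16 alternatives, with dim genes left out (adjusted p = 0.0371), and its adjusted p reached 0.220 in the rest. With LOC550643 siRNA the mean was 7.52 ± 0.06 (change 0.09, limma adjusted p = 0.849). In the order Dcp2, non-silencing, LOC550643, GAPDH and DcpS siRNA, the first neighbours differed (limma adjusted p = 0.00788) and the next 3 pairs did not pass (adjusted p = 0.849, 0.556 and 0.552).

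**Figure D3:**
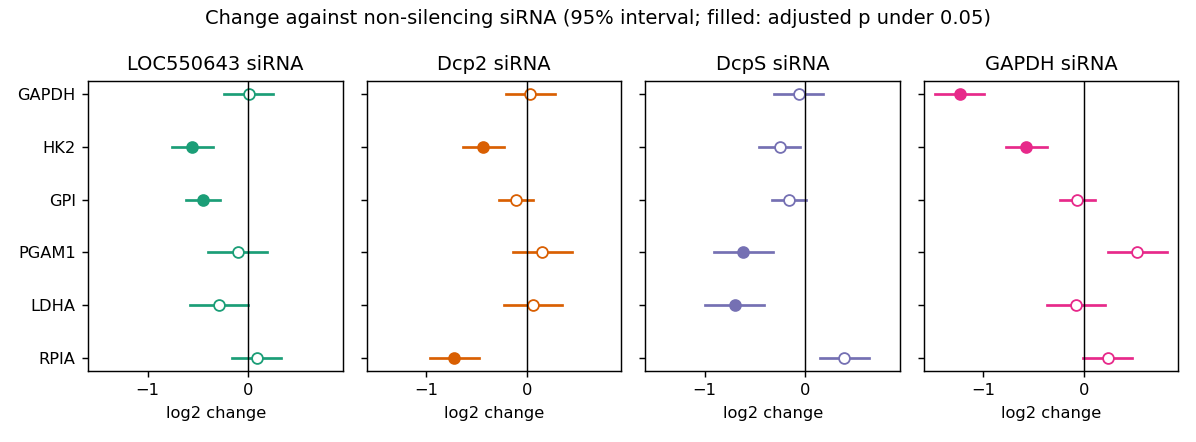
Changes of the 6 enzymes against non-silencing siRNA (x axis, log2 units; points are estimates, bars 95% intervals of the limma fit) are drawn in 1 panel for each targeting siRNA, with filled points at an adjusted p under 0.05. Filled points are 2 in each panel and all lie left of 0, and HK2 is filled in every panel but that of DcpS siRNA.

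All 6 enzymes differed among the 5 groups in the moderated F test of limma, with adjusted p of 1.68e-05 for GAPDH, 0.000160 for RPIA, 0.000816 for PGAM1, 0.00327 for HK2, 0.00699 for LDHA and 0.00974 for GPI. Of all named genes, 12.2% passed this test, a share that is no fair measure for 6 genes chosen with earlier results known. The F test does not say which groups differ, so the 4 targeting siRNAs were also set against each other directly, without the non-silencing arrays as a reference.

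In these 6 direct comparisons, 15 of 36 differences passed. With GAPDH siRNA, GAPDH, GPI and PGAM1 differed from LOC550643 siRNA (4.08% of all named genes were called in either direction), GAPDH and RPIA from Dcp2 siRNA (2.79%), and GAPDH, LDHA and PGAM1 from DcpS siRNA (5.98%). LOC550643 siRNA differed from Dcp2 siRNA in GPI and RPIA (3.2%) and from DcpS siRNA in GPI and PGAM1 (6.4%), and Dcp2 differed from DcpS siRNA in LDHA, PGAM1 and RPIA (5.64%). HK2 passed in 0 of the 6 comparisons. Its differences ran from -0.02 to -0.32 in the order compared, with GAPDH against DcpS siRNA (-0.32, limma adjusted p = 0.0650) and LOC550643 against DcpS siRNA (-0.30, adjusted p = 0.0767) nearest to the threshold. Both passed without DcpS replicate 2 (-0.40 and -0.38, adjusted p = 0.0353 and 0.0421), after a further quantile normalization (0.0456 and 0.0258) and with dim genes left out (0.0293 and 0.0363). The former also passed with the array score as a covariate (0.0443). They did not pass in the other 12 and 13 of 16 alternatives, with adjusted p up to 0.254 and 0.259.

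**Figure D4:**
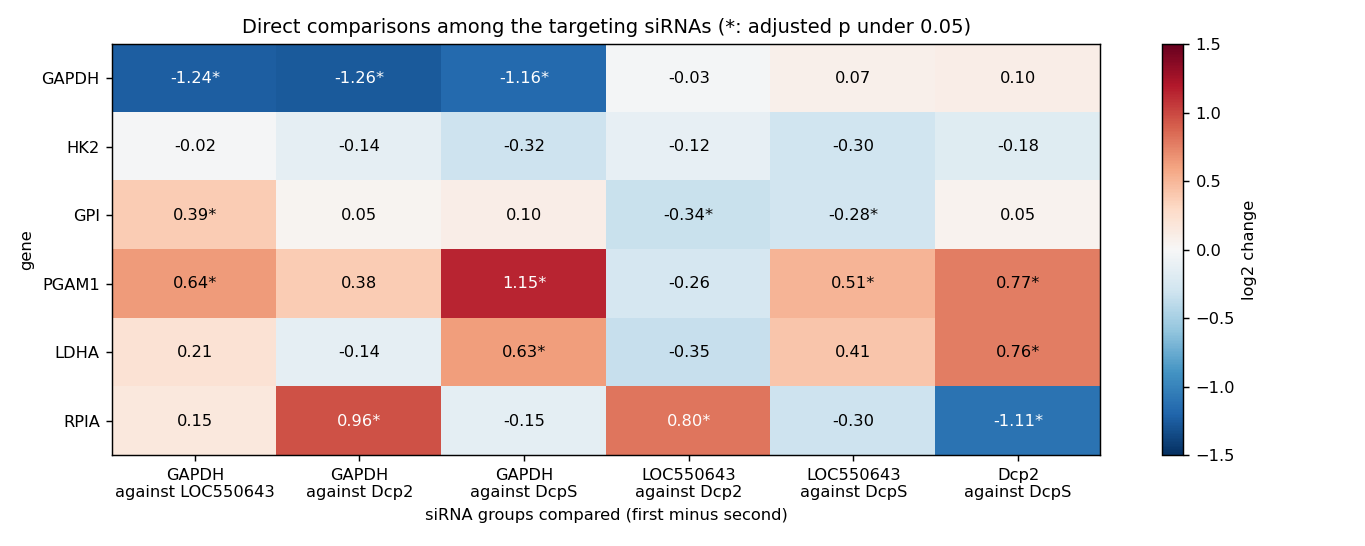
Each cell gives the log2 difference of 1 enzyme (rows) between 2 siRNA groups (columns, the first named minus the second), with colour for its size and sign and an asterisk for a limma adjusted p under 0.05. Asterisks stand in the 3 GAPDH siRNA columns for GAPDH, in the 3 DcpS columns and 1 other for PGAM1, in 2 of the DcpS columns for LDHA, in the Dcp2 columns for RPIA and in the LOC550643 columns for GPI, and nowhere for HK2.

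The largest of these differences besides GAPDH was in PGAM1, which was 2.21-fold higher with GAPDH than with DcpS siRNA (log2 difference 1.15, SE 0.14, 95% interval 0.85 to 1.44, limma adjusted p = 0.000148). PGAM1 was also 0.77 higher with Dcp2 than with DcpS siRNA (adjusted p = 0.00372), 0.64 higher with GAPDH than with LOC550643 siRNA (adjusted p = 0.0156) and 0.51 higher with LOC550643 than with DcpS siRNA (adjusted p = 0.0384). The last 2 of these calls were lost without single arrays, the former without LOC550643 replicate 1 or 2 or GAPDH replicate 1, and the latter without any LOC550643 array or DcpS replicate 1 or 3. RPIA was 1.94-fold higher with GAPDH than with Dcp2 siRNA (0.96, limma adjusted p = 0.000276), 0.80 higher with LOC550643 than with Dcp2 siRNA (adjusted p = 0.00145) and lower by 1.11 with Dcp2 than with DcpS siRNA (-1.11, adjusted p = 8.70e-05). These RPIA differences involve Dcp2 each time, while LOC550643, DcpS and GAPDH siRNA did not differ from each other past the threshold (adjusted p = 0.148 to 0.556).

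LDHA was 0.76 higher with Dcp2 than with DcpS siRNA (limma adjusted p = 0.00366) and 0.63 higher with GAPDH than with DcpS siRNA (adjusted p = 0.0116, and 0.46 with adjusted p = 0.0506 without DcpS replicate 1). GPI was 0.39 higher with GAPDH than with LOC550643 siRNA (limma adjusted p = 0.0119), a call lost without LOC550643 replicate 1 or GAPDH replicate 1. GPI was also lower with LOC550643 than with Dcp2 siRNA (-0.34, adjusted p = 0.0316) and than with DcpS siRNA (-0.28, adjusted p = 0.0472). Both of these calls are weak. The former was lost without any LOC550643 array, without Dcp2 replicate 1 or 3 and with median centring (adjusted p = 0.0603), and the latter in 11 of 16 alternatives, among them the absence of any single LOC550643 or DcpS array and median centring (adjusted p = 0.0710).

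Of the other 10 measured glycolysis genes, 0 passed the limma test against the reference with any siRNA, and 1, 0, 2 and 1 had an unadjusted p under 0.05 with LOC550643, Dcp2, DcpS and GAPDH siRNA. Their median changes were -0.04, 0.02, -0.05 and -0.01 in the same order. The share of all named genes at an unadjusted p under 0.05 was not counted, so such counts here and below have no background. PGK1, which acts between GAPDH and PGAM1, was the nearest in the DcpS comparison at -0.41 (limma adjusted p = 0.113), and is named after its value was seen. The count with DcpS siRNA was 1 without DcpS replicate 3 and with the array score as a covariate. Changes that did not pass could be as large as those called in the 6 enzymes, such as 0.44 for PGAM4 with GAPDH siRNA (adjusted p = 0.284). Among 4 measured regulators of glycolysis 0 passed, with 1, 0, 1 and 0 at an unadjusted p under 0.05. The 3 measured genes of the oxidative branch of the pentose phosphate pathway also gave 0 calls, with 2, 0, 0 and 0 at an unadjusted p under 0.05 and medians of -0.28, -0.29, 0.07 and -0.14. PGLS, the lactonase of this branch, was at -0.50 with LOC550643 siRNA (limma adjusted p = 0.202). Between targeting siRNAs, PGD was lower with LOC550643 than with DcpS siRNA (-0.38, adjusted p = 0.0370), a call lost in 9 of 16 alternatives. PCK1, the gluconeogenic carboxykinase on the regulator list, differed between LOC550643 and Dcp2 siRNA (-0.52, adjusted p = 0.0283) and between Dcp2 and DcpS siRNA (0.47, adjusted p = 0.0293), calls lost in 5 and 6 of 15. Its group means, 4.34 to 4.86, lay below the median of 5.47 over all named genes. PGAM4, PGLS, PGD and PCK1 were singled out after their values were seen.

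In the nonoxidative branch and ribose phosphate use, 1 of 9 other measured genes was lower with LOC550643 siRNA, 0 with Dcp2 siRNA (1 at an unadjusted p under 0.05 in limma), 1 with DcpS siRNA and 1 with GAPDH siRNA, and 0 were higher. The 3 genes differed. PRPS1 and PRPS2 encode the synthetases that turn ribose 5-phosphate into the sugar donor for nucleotides, and RPE encodes the epimerase beside RPIA.

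PRPS1 was lower with GAPDH siRNA. Its arrays read 8.80, 8.75 and 8.76 with GAPDH siRNA, 9.14, 9.23 and 9.24 in the reference, 9.35, 9.24 and 9.18 with LOC550643 siRNA, 9.14, 9.38 and 9.40 with Dcp2 siRNA, and 9.36, 9.18 and 9.38 with DcpS siRNA. All 3 GAPDH siRNA arrays were below the other 12. The change against the reference was -0.44 (SE 0.09, limma adjusted p = 0.0218), and this call was lost without non-silencing replicate 2 or 3 or any GAPDH siRNA array (adjusted p from 0.0588 to 0.0902 over all alternatives that lost it). Against LOC550643, Dcp2 and DcpS siRNA the changes were -0.49, -0.54 and -0.54 (limma adjusted p = 0.00608, 0.00424 and 0.00201), and they passed in all 16 alternatives run for each.

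PRPS2 was lower with LOC550643 siRNA. The LOC550643 arrays read 9.62, 9.59 and 9.73 and the non-silencing arrays 10.11, 10.09 and 10.10, with no overlap, a change of -0.45 (SE 0.08, limma adjusted p = 0.00844). The other means were 9.92 with Dcp2 siRNA, 10.04 with GAPDH siRNA and 10.19 with DcpS siRNA, and PRPS2 was 0.39 higher with GAPDH than with LOC550643 siRNA (adjusted p = 0.0104) and lower with LOC550643 than with DcpS siRNA (-0.54, adjusted p = 0.000692). RPE was lower with DcpS siRNA, at 4.58, 4.27 and 4.43 against 4.98, 4.81 and 4.89 in the reference, a change of -0.47 (SE 0.12, limma adjusted p = 0.0413). RPE is a dim gene here, with group means of 4.43 to 5.09, below the median of 5.47 over all named genes. Without a detection call, whether RPE stands above background was not tested. Its arrays did not overlap either, but the call was lost in 7 of 15 alternatives, among them the absence of any non-silencing array or of DcpS replicate 2 or 3. Against LOC550643 and Dcp2 siRNA, RPE was lower with DcpS siRNA by 0.67 and 0.52 (adjusted p = 0.00331 and 0.0172), and the latter call was lost without Dcp2 or DcpS replicate 2 and with all probe sets tested (adjusted p up to 0.0876).

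**Figure D5:**
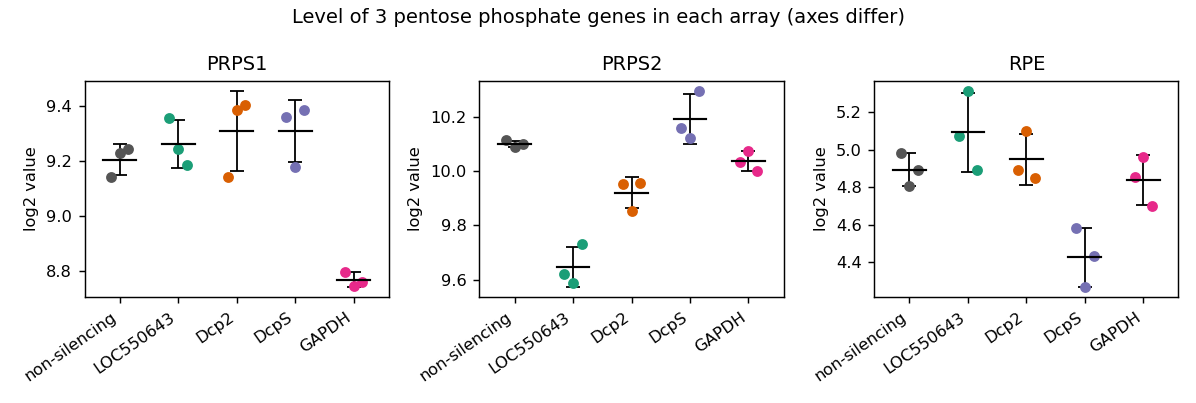
The log2 level (y axis, which differs between panels) of PRPS1, PRPS2 and RPE is plotted for each array by siRNA group (x axis), with points for arrays and bars for the group mean and SD (n = 3). The lowest group is GAPDH siRNA for PRPS1 (8.75 to 8.80), LOC550643 siRNA for PRPS2 (9.59 to 9.73) and DcpS siRNA for RPE (4.27 to 4.58).

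Downstream of pyruvate, MPC1, a subunit of the mitochondrial pyruvate carrier, was the 1 of 8 measured genes called against the reference, lower with DcpS siRNA by 0.49 (arrays 8.15, 8.11 and 7.93 against 8.69, 8.47 and 8.49, change -0.49, limma adjusted p = 0.0135). It was not called without non-silencing replicate 1 or DcpS replicate 3. With LOC550643, Dcp2 and GAPDH siRNA 0 of these 8 passed, and 0, 3 and 1 had an unadjusted p under 0.05 in limma. DLAT of this list, named after its values were seen, had its highest mean with DcpS siRNA (8.82, reference 8.49). It was called higher there than with GAPDH (8.31), Dcp2 (8.26) and LOC550643 siRNA (8.46). The first 2 calls were kept in 16 of 16 alternatives, and the third was lost in 10 of 16. Of 11 other measured targets of hypoxia-inducible factors, 1 was called, ADM, which encodes the peptide adrenomedullin and was higher with Dcp2 siRNA (6.05, 5.93 and 6.13 against 5.68, 5.73 and 5.56, change 0.38, limma adjusted p = 0.0328), a call lost in 10 of 16 alternatives, including the absence of any Dcp2 array. With Dcp2 siRNA 7 of the 11 were positive and 4 negative, where 49.7% of all named genes were negative. An unadjusted p under 0.05 in limma was found for 4 of the 11, a count without an all-gene background. The largest change was that of DDIT4, an inhibitor of mTOR signalling (0.72, limma adjusted p = 0.0794). In direct comparisons DDIT4 was 0.87 higher with Dcp2 than with DcpS siRNA (adjusted p = 0.0192) and lower with GAPDH than with Dcp2 siRNA (-0.84, adjusted p = 0.0371), as was VEGFA, the angiogenic growth factor (-0.49, adjusted p = 0.0267). ADM was lower with LOC550643 than with Dcp2 siRNA (-0.44, adjusted p = 0.00955), and NDRG1 (LOC550643 against DcpS siRNA, 0.35, adjusted p = 0.0266) and MXI1 (GAPDH against DcpS siRNA, -0.38, adjusted p = 0.0212) also differed. The ADM call was lost in 1 of 16 alternatives and each of the others in 4 to 7, and the genes other than ADM were singled out after their values were seen. The other 3 siRNAs gave 0 calls on this list and 1, 2 and 2 unadjusted p under 0.05, with LOC550643, DcpS and GAPDH siRNA. The single measured gene of the transport list, BSG, was called with 0 of the 4 siRNAs.

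Each of the 6 enzymes was also matched with the named genes whose levels followed it most closely over the 15 arrays, among 7258 genes at or above the median level. For GAPDH these were FCF1 (r = 0.941), SMS (0.935) and AGFG1 (0.932), for HK2 PLLP (0.822), CNRIP1 (0.811) and PGM2 (0.81), and for GPI ARAF (0.901), PRDX2 (0.899) and NCS1 (0.899). For LDHA they were GRB2 (0.968), VBP1 (0.916) and TMEM214 (0.916), for PGAM1 GID8 (0.91), CRABP2 (0.908) and RNF115 (0.9), and for RPIA ERO1B (0.945), TRAPPC11 (0.936) and VPS4B (0.934). The likeness to GAPDH came from the group means for FCF1 and AGFG1, since within groups r was -0.225 and -0.0995. For SMS it was 0.5. Within-group r was also low for the matches of HK2 (-0.0162, 0.208 and 0.303, in the order named) and GPI (0.354, 0.106 and 0.276). For the matches of PGAM1 it was 0.726, 0.598 and 0.233, and for those of RPIA 0.529, 0.664 and 0.579. GRB2 followed LDHA within groups as well (r = 0.934), as did VBP1 (0.777) and TMEM214 (0.783). These are the highest of many correlations over arrays that share the same 5 groups, and are given as a description.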

How the data were processed

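Total RNA of 15 samples was hybridised to 15 arrays, 1 per sample. The deposited log2 values had been summarised per probe set with RMA in oligo, per the submitters' processing notes; versions, the probe set definition and the genome build are not given in the sources used here, and the log base was read from the range of the values. RMA equalises the distributions of the arrays, so levels are relative. Of 53617 probe sets, 16098 carried 1 gene symbol in the platform table (all matched RefSeq by Entrez identifier) and 37519 none. They gave 14884 genes, and for 779 with several probe sets the one with the highest mean was used. limma 3.58.1 (R 4.3.3; lmFit, eBayes, checked on simulated data) was fitted to all 15 arrays with 1 mean per group (10 residual degrees of freedom), with 10 pairwise comparisons, each adjusted by Benjamini-Hochberg over all genes at 0.05. By rule, list genes called against the reference (at most 6 per list and comparison) and the 3 best correlated genes of each enzyme are named beside the 6 enzymes. Outside this rule, and besides cell type markers, LDHB, PGK1, PGAM4, PGLS, PGD, PCK1, DLAT, DDIT4, VEGFA, NDRG1, MXI1 and BSG are also named. Members and lists were chosen with earlier results of these data known. The number of arrays limits the precision.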

Additional observations from a re-analysis of the deposited data

How the results depend on the processing

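Of 960 recomputed differences of the 6 enzymes over 16 alternatives per comparison, 874 kept their direction and side of the threshold, 20 changed sign without a call in either fit, 51 lost a call, 15 gained one and 0 reversed a call. The GAPDH change with its own siRNA was called in all 16 (-1.30 to -1.09, limma adjusted p 9.84e-06 to 0.0125). The enzymes called against the reference numbered 2 for Dcp2 siRNA but 1 with all probe sets tested, 1 with the array score as a covariate and 0 on only the 6 compared arrays (2 at an unadjusted p under 0.05 in limma); 2 for DcpS siRNA but 1 with all probe sets and 0 on 6 arrays (3 unadjusted); and 2 for LOC550643 siRNA but 1 on 6 arrays. The cause was not tested. Leaving out 1 replicate gave 1 to 2 calls for Dcp2 and 1 to 3 for DcpS siRNA. The F test kept 6 and was not run on 6 arrays. The 15 direct calls ranged from 10 to 18. On 6 arrays, GPI with LOC550643 siRNA, LDHA with DcpS siRNA and RPIA with Dcp2 siRNA had adjusted p of 0.0681, 0.0915 and 0.0646. Quantile normalization or median centring moved the median of all genes by at most 0.0307.

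Arrays with the same replicate number deviated together little in the median (r = 0.018, range -0.198 to 0.394). Of 30 such pairs 9 lay above 0.1, and 6 of 15 arrays matched best with their own number. The main fit therefore used no pairing, and whether some arrays with the same number share a batch was not tested. With the replicate block the calls were 2 in each comparison with the reference, 6 in the F test and 14 direct; GPI between LOC550643 and DcpS siRNA lost its call (adjusted p = 0.0571). The count of other glycolysis genes called with DcpS siRNA was 1 with the block and 0 without.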
